A study of Mus musculus with 6 samples.

Results

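The 10 genes described here belong to the contractile and secretory program of heart muscle, and they were picked by symbol from the 55341 genes of the count table. *Myl7*, *Myl4*, *Sln* and *Nppa* are typical of the atria, *Myl2* and *Myh7* are typical of the ventricles or of slow muscle, and *Myh6*, *Actc1*, *Tnnt2* and *Tnni3* are used by both chambers of the adult mouse heart. The members were chosen with earlier results of these libraries known, including their levels in each library and the comparison of the genotypes, so their values are given as a description and support no test. Of the 10 members, 7 passed the filter on few counts, and *Nppa*, *Myl2* and *Myh7* did not.

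Aortic vessels of 3 miRNA-26b-/- mice (libraries M2626, M2627 and M2628) and 3 miRNA-26b+/+ mice (M2629, M2630 and M2631) were sequenced, 1 library per mouse. All mice were 8 weeks old, on chow diet and labelled C57BL/6NCrl; the wild type animals are called naive and received no treatment that the labels name. The targeted allele was made in embryonic stem cells of another strain and was deleted through loxP sites by a tamoxifen-induced CreERT2, and the Cre gene was then removed by breeding, so that both arms of the hairpin are missing; what drives the Cre is not given in the sources used here. After perfusion with saline, the arch and the thoracic part of the aorta were collected, and nothing in the sources used here says whether tissue at the root of the vessel was trimmed.

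Cardiac muscle contracts when calcium released from the sarcoplasmic reticulum binds the troponin complex on the actin filament and lets myosin heads, each carrying an essential and a regulatory light chain, pull on it. Atrial and ventricular cells use different light chains, and in the adult mouse both rely mainly on the fast heavy chain encoded by *Myh6*, while *Myh7* encodes the slow one. Striated muscle of the cardiac type is also known outside the heart, in the wall of the large thoracic veins of rodents.

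The labels call the samples endothelial cells, but the smooth muscle markers were by far the most abundant list in every library. The 8 smooth muscle genes summed to between 33511 and 44057 CPM (the counts of a gene scaled to a library total of 1000000 counts), led by *Acta2* and *Myh11*, and the 8 endothelial genes to between 481 and 1792 CPM, led by *Pecam1* and *Vwf*. The libraries held 25706728 to 33345037 counts. *Mir26b*, the deleted gene, had 20 counts in M2630 and 0 in the other 5 libraries, wild type ones included, so this count table cannot check the genotype of each library. *Ctdsp1*, whose intron holds the hairpin, had 4549 to 6121 counts in the 6 libraries. The miRNA that was removed is shown here because its seed, in capitals (bases 2 to 8), sets which messages it can pair with. It lies at chr1:74394324-74394344 on the forward strand of GRCm38.p6 (RefSeq).
mmu-miR-26b-5p: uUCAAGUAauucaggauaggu
The reverse complement of this seed in DNA letters, TACTTGA, was in the longest annotated 3′ UTR of 0 of the 10 members, and it was in that of 9.96% of 21173 genes.

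Cardiac muscle messages were low on the scale of the aorta and were unevenly spread over the mice. Summed over the 10 members, the level was 29.7 CPM in M2626, 388 in M2627 and 20.8 in M2628 among miRNA-26b-/- mice, and 78.9 in M2629, 323 in M2630 and 34.4 in M2631 among miRNA-26b+/+ mice. The sums of M2627 and M2630 were thus the highest, 1 library of each genotype, and the genotypes overlapped. In bulk tissue, fewer cardiac muscle cells and less RNA of these genes per cell cannot be told apart. A member was counted as present where it had more than 3 counts, a floor that covers counting error only and is 0.090 to 0.117 CPM in these libraries. By that measure, M2626, M2627 and M2629 each held 7 of the 10 members, M2630 held 8, M2631 held 5 and M2628 held 4.

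**Figure D1:**
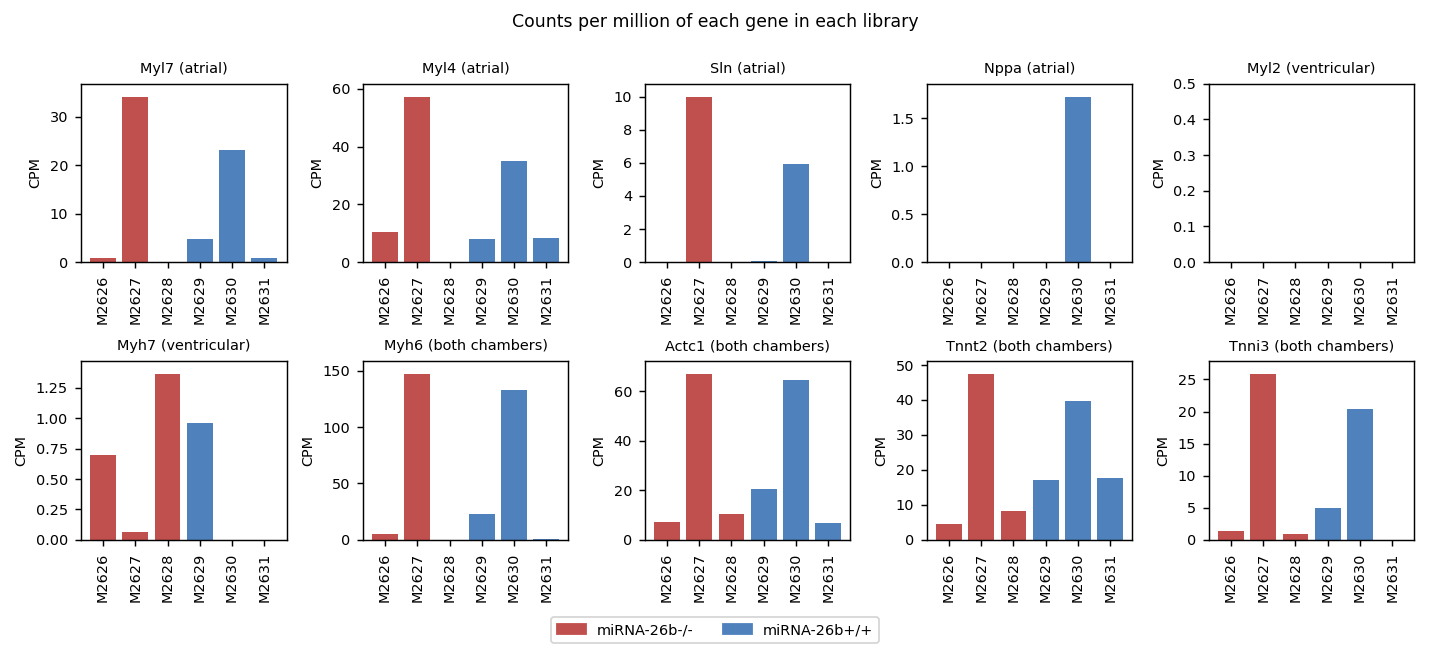
CPM (vertical axis, own scale for each gene, starting at 0) of the 10 genes in each of the 6 libraries, 1 bar per mouse, red for miRNA-26b-/- and blue for miRNA-26b+/+. In 7 panels the bars of M2627 and M2630 are the highest, *Myl2* is at 0 throughout, and *Myh7* is at or under the floor of 3 counts in both of these libraries.

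*Myl7*, the regulatory light chain of atrial myosin, lies on the reverse strand of GRCm38, the build of all positions given here, at chr11:5896637-5898782 (ENSMUSG00000020469). Its level in miRNA-26b-/- mice was 0.934, 34.1 and 0 CPM in M2626, M2627 and M2628, and in miRNA-26b+/+ mice it was 4.80, 23.1 and 0.876 CPM in M2629, M2630 and M2631. M2627 and M2630 were far above the other libraries, and M2628 had no read. Within the miRNA-26b-/- group alone, M2627 was at least 317-fold higher than M2628, taking 3 counts as the limit in M2628. The group means were 11.7 ± 19.4 CPM (SD, n = 3) and 9.60 ± 11.9 CPM (SD, n = 3).

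*Myl4*, the atrial essential light chain (chr11:104550663-104595753, forward strand, ENSMUSG00000061086), was likewise highest in M2627 and M2630. Its values were 10.3, 57.2 and 0 CPM in miRNA-26b-/- mice and 7.94, 35.0 and 8.21 CPM in miRNA-26b+/+ mice. The 0 of M2628 stood below M2627 by a factor of at least 532, and M2626, M2629 and M2631 lay close together. *Sln* encodes sarcolipin, a small inhibitor of the sarcoplasmic calcium pump that is abundant in atria and in some skeletal muscles (chr9:53850164-53854560, forward strand, ENSMUSG00000042045). It had 333 counts in M2627, 165 in M2630, 3 in M2629 and 0 in M2626, M2628 and M2631. *Sln* therefore exceeded the floor in M2627 and M2630 alone.

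*Nppa* encodes atrial natriuretic peptide, a hormone released by atrial muscle (chr4:148000722-148002079, forward strand, ENSMUSG00000041616). It had 48 counts in M2630 and 0 in each of the other libraries, including M2627, where the other 3 atrial members were highest. Its exons share 532 bases with *Gm13054*, an antisense gene that had the same 48 counts in M2630 and 0 elsewhere. As the reads were counted without strand and for every gene they overlapped, the 48 reads cannot be assigned to either gene. Low genes of this table are often seen in a single library: of 3281 genes with a mean of 4 to 16 counts, 34.6% were above 0 in 1 library only.

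The ventricular members had few or no reads. *Myl2*, the ventricular regulatory light chain (chr5:122100951-122113472, forward strand, ENSMUSG00000013936), had 0 counts in all 6 libraries. A count of 0 allows up to 0.090 CPM in the deepest library and 0.117 CPM in the shallowest. *Myh7*, the slow heavy chain of ventricles and of slow skeletal fibres (chr14:54970684-54994626, reverse strand, ENSMUSG00000053093), had 18, 2 and 38 counts in miRNA-26b-/- mice and 29, 0 and 0 in miRNA-26b+/+ mice. M2627 and M2630, the libraries richest in the other members, were thus at or under the floor for *Myh7*. The antisense gene *Mhrt*, which shares 484 exon bases with *Myh7*, had 29 counts in M2627 and 0 in the other libraries.

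Among the members of both chambers, *Myh6*, the fast cardiac myosin heavy chain (chr14:54941921-54966927, reverse strand, ENSMUSG00000040752), had the widest range. It was at 5.10, 147 and 0 CPM in miRNA-26b-/- mice and at 22.7, 133 and 1.04 CPM in miRNA-26b+/+ mice. M2628, with no read, was below M2627 by a factor of at least 1365, and M2631 was 128-fold below M2630. The group means of *Myh6* were 50.6 ± 83.3 CPM and 52.2 ± 70.7 CPM (SD, n = 3 each). The antisense gene *Gm49130* shares 114 exon bases with *Myh6* and had 136 counts in M2627, 33 in M2629 and 49 in M2630, against 4892, 685 and 3702 for *Myh6* itself, and 0 in the remaining libraries.

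*Actc1*, cardiac alpha-actin (chr2:114047282-114053548, reverse strand, ENSMUSG00000068614), was present in every library. Its level was 6.96, 66.8 and 10.3 CPM in miRNA-26b-/- mice and 20.4, 64.4 and 6.59 CPM in miRNA-26b+/+ mice. M2627 and M2630 differed by a factor of 1.04, and each was about an order of magnitude above the lowest library of its genotype. *Tnnt2*, cardiac troponin T, which ties the troponin complex to tropomyosin (chr1:135836354-135852260, forward strand, ENSMUSG00000026414), was also present throughout. Its values were 4.43, 47.3 and 8.21 CPM in miRNA-26b-/- mice and 17.2, 39.8 and 17.7 CPM in miRNA-26b+/+ mice. The range within miRNA-26b+/+ mice, 2.31-fold, was the narrowest of the 7 members that passed the filter. *Tnni3*, the inhibitory subunit of cardiac troponin (chr7:4518305-4524229, reverse strand, ENSMUSG00000035458), was at 1.32, 25.8 and 0.932 CPM in miRNA-26b-/- mice and at 4.90, 20.5 and 0 CPM in miRNA-26b+/+ mice. Its exons share 86 bases with *Dnaaf3*, which had 0 to 40 counts per library. M2628 therefore kept *Actc1*, *Tnnt2* and a few reads of *Tnni3* while it had 0 counts of *Myl7*, *Myl4*, *Sln* and *Myh6*.

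Levels of different genes were compared per length, as counts per kilobase of exon scaled to the library's total (RPKM). The order of the mean is set mostly by M2627 and M2630, where the levels were highest. Averaged over the 6 libraries, *Actc1* (18.1 RPKM) and *Myl7* (18.0 RPKM) came first, followed by *Myh6* at 7.64, *Tnni3* at 4.32, *Myl4* at 4.26, *Tnnt2* at 2.90 and *Sln* at 2.02 RPKM. *Nppa* at 0.332, *Myh7* at 0.0596 and *Myl2* at 0 RPKM were last. In single libraries *Actc1* was first in 5 of 6, while *Myl7* was first in M2627, the third in M2626, the fourth in M2631 and at 0 in M2628, and *Tnnt2* came next after *Actc1* in M2628 and M2631. Each neighbouring pair in the order of means overlapped over the 6 libraries. With levels this uneven between libraries, such an overlap says little about genes measured in the same library. Within libraries, *Myl7* was above its neighbour *Myh6* in M2626, M2627, M2629, M2630 and M2631, and both were at 0 in M2628. By exon length *Tnni3* was above its neighbour *Myl4* in M2627, M2628, M2629 and M2630 and below it in M2626 and M2631. The count table divides by all annotated exon bases of a gene, 4637 for *Myl4* and 7752 for *Tnnt2*, while their longest coding transcripts have 943 and 1200 bases. With the transcript length, an alternative chosen after seeing the data, *Myl4* went from 12.3 to 60.6 RPKM in M2627 and from the fifth place to the first there. Only 3 of the 10 members kept their place in M2627, *Myh7*, *Nppa* and *Myl2*, all at or under the floor there. By this length *Myl4* was first in M2626 and M2627, *Tnnt2* in M2629 and M2631, and *Actc1* in M2628 and M2630 alone. The order of the members thus depended on the length used.

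Shares of 2 genes within a library do not depend on its depth. The share of *Myh6* in *Myh6* and *Myh7* sets the fast against the slow heavy chain and does not separate the chambers, as both use *Myh6*. Per kilobase, *Myh6* made up 90.3% of *Myh6* and *Myh7* in M2626, 99.97% in M2627 and 96.8% in M2629, and 100% in M2630 and M2631. M2628 stood apart, with 38 counts of *Myh7* and 0 of *Myh6*, a share of 0% whose exact 95% binomial interval on the reads reaches 9.25%. The light chains differ between the chambers, and *Myl7* made up 100% of *Myl7* and *Myl2* in the 5 libraries with any such read. The interval on the reads starts at 85.8% in M2626, with 24 reads, and at 99.7% in M2627, with 1138. For all 4 atrial against both ventricular members, the atrial share per kilobase was 97.9% in M2626, 99.99% in M2627, 98.9% in M2629, 100% in M2630 and M2631, and 0% in M2628. As *Myl2* had no read in any library, the ventricular side of this share is *Myh7* alone, which slow skeletal fibres also use. The 0% of M2628 rests on its 38 reads of *Myh7*, so this share does not tell the chambers apart. *Myl3*, the ventricular essential light chain, is no member and is not in this share, and it had 38 counts in M2627 and 111 in M2630. These intervals cover counting error only, as reads are not independent molecules. Of the other genes of slow skeletal fibres, *Tnnt1* had 73, 34 and 39 counts in miRNA-26b-/- and 134, 47 and 64 in miRNA-26b+/+ mice, an order unlike that of *Myh7*, and *Tnni1* had 35, 21 and 0 counts against 0 in each miRNA-26b+/+ library.

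The sequence before the start of each member was searched for motifs known from muscle genes. Of the 10 members, 9 had an entry among the RefSeq promoters of GRCm38.p6, with 12 promoters in all, and the 250 bases before the start were searched on both strands. A CArG box, the motif bound by serum response factor in muscle genes, was found before *Actc1* and *Myl7*, which is 2 of the 12 promoters against 1.47% of all 32851. Both stretches are shown from 130 to 31 bases before the start, with the CArG box in capitals. That of *Actc1* is chr2:114052906-114053005 and that of *Myl7* is chr11:5898813-5898912, both on the reverse strand. The RefSeq start of *Actc1* is 114052875, which lies inside the gene as annotated above, where a further transcript starts upstream, and the stretch overlaps no annotated exon.
Actc1: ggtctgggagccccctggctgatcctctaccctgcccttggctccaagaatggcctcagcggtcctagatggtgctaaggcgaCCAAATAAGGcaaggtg
Myl7: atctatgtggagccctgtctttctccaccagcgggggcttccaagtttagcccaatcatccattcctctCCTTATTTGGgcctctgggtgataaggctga
The box begins 47 bases before this RefSeq start of *Actc1* and 61 bases before that of *Myl7*. The motif of MEF2, a factor of all striated muscle, had no match in the 12, against 2.92% of all promoters. TATAAA was found in 2 of the 12 (12.4% of all promoters), AGATAA, which GATA factors bind, in 2 (9.99%), CATTCC, which TEAD factors bind, in 4 (12.6%), and AAGTG, which NKX2-5 binds, in 7 (40.7%). A match is a description of the letters and not a measured site. Both RefSeq starts of *Myl2* (122092724 and 122093189) lie upstream of the gene as annotated above. They gave 1 of the 2 promoters with TATAAA, 1 of the 2 for GATA factors and 1 of the 7 for NKX2-5. The starts of *Tnni3* (4522528) and *Myh6* (54966607), 1 of *Myh7* (54994549) and 1 of *Tnnt2* (135836989) lie inside the gene. The 2 searched stretches of *Myh7* overlap and share 1 NKX2-5 match, and the 7 promoters belong to 6 members.

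The design asks how loss of miRNA-26b changed these messages. With all 6 libraries, the log2 fold change of miRNA-26b-/- against miRNA-26b+/+ mice was 0.46 ± 0.98 (SE) for *Myl7*, 0.50 ± 0.79 for *Myl4*, 0.98 ± 1.25 for *Sln*, 0.04 ± 1.03 for *Myh6*, -0.03 ± 0.70 for *Actc1*, -0.23 ± 0.58 for *Tnnt2* and 0.32 ± 0.94 for *Tnni3*. Each of these 7 differences was smaller than its standard error, which was worked back from the F statistic of the quasi-likelihood test. In the quasi-likelihood fit of edgeR over 16017 genes, 0 of the 7 members had an unadjusted p-value under 0.05, beside 6.47% of all genes, and 0 had an adjusted one, beside 0.00624% of all genes. Limma voom gave 0 of 7 at the unadjusted threshold and DESeq2 0 of the 6 for which it gave a p-value, without *Sln*. With limma voom the sign turned for *Myl7* (-2.14), *Myl4* (-2.26), *Sln* (-0.20) and *Myh6* (-2.10). The genotypes overlapped for each of the 7, beside 11.7% of all genes whose groups did not overlap. Because the members were chosen with this comparison known, nothing is read from these counts.

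The direction depended on single libraries, most of all on M2627 and M2630. Without M2627, the log2 fold change was -4.37 for *Myl7*, -1.77 for *Myl4*, -4.40 for *Myh6*, -1.80 for *Actc1*, -1.96 for *Tnnt2* and -2.87 for *Tnni3*, *Sln* no longer passed the filter, and 5 of the 6 members left had an unadjusted p-value under 0.05, beside 5.76% of all genes in that fit, while 0 had an adjusted one. Without M2630, the values were 2.19 for *Myl7*, 1.56 for *Myl4*, 2.18 for *Myh6*, 1.14 for *Actc1*, 0.28 for *Tnnt2* and 2.08 for *Tnni3*, with 0 members under the unadjusted threshold, beside 4.97% of all genes. Leaving out another library also turned signs, those of *Actc1* and *Tnnt2* without M2626 or M2628, of *Myh6* without M2629 and of *Myl7*, *Myh6* and *Tnni3* without M2631. In these fits 0 members had an unadjusted p-value under 0.05, beside 5.76% of all genes without M2626, 10.8% without M2628, 5.34% without M2629 and 4.36% without M2631. With both libraries left out, an alternative chosen after seeing the data, 5 members were tested and *Tnnt2* alone had an unadjusted p-value under 0.05, beside 4% of all genes.

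**Figure D2:**
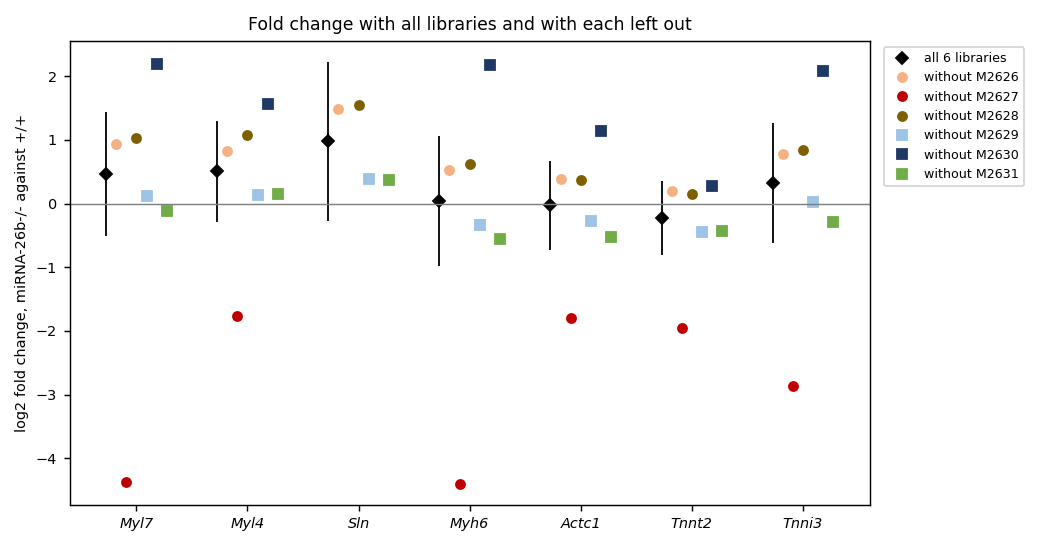
Log2 fold change of miRNA-26b-/- against miRNA-26b+/+ mice (vertical axis) for the 7 genes tested, with all 6 libraries (black diamond, bar of 1 standard error on each side) and with each library left out. The points without M2627 fall to between -4.40 and -1.77, those without M2630 lie between 0.28 and 2.19, and *Sln* has no point without M2627 or M2630.

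The wider program of the cardiac muscle cell was described by 77 further genes in 6 lists, of which 68 were tested. Not all of them are confined to libraries with cardiac members. In M2628, with 0 counts of *Myl7*, *Myl4* and *Myh6*, *Atp2a2* was at 1038, *Jph2* at 627, *Hspb7* at 366 and *Myom1* at 265 CPM. The counts and the median of the list therefore do not describe cardiac muscle cells alone, and the cells behind them were not tested. In the miRNA-26b-/- mice 2 of the 68 were higher and 2 lower at an unadjusted p-value under 0.05, a share close to the 6.47% of all genes, and 0 passed the adjustment in edgeR, DESeq2 and limma voom. Their median log2 fold change was -0.04, beside 0.01 for all genes tested. The 4 genes were *Mylk3*, the cardiac myosin light chain kinase, with 1, 63 and 88 counts against 0 in each miRNA-26b+/+ library; *Hcn4*, the pacemaker channel, with 61, 176 and 79 against 28, 28 and 28 counts; *Tbx3*, a transcription factor of the conduction system, with 21, 2 and 0 against 60, 83 and 52 counts; and *Lbh*, with a log2 fold change of -0.38 ± 0.14 (SE). *Mylk3* exceeded 1 CPM in miRNA-26b-/- libraries only and *Tbx3* in miRNA-26b+/+ libraries only, so each passed the filter through the group in which it was higher. None of these 4 followed the order of the members, as M2627 and M2630 were not both among their highest libraries. Without M2627 the count was 7 of 58 genes (5.76% of all genes in that fit), and without M2631 it was 2 of 67 (4.36%). Without M2628 it was 7 of 67, close to the 10.8% of all genes in that fit. Of these, *Gja5* and *Nexn* also passed the adjustment, beside 82 of all 15654 genes. Both were lower in miRNA-26b-/- mice (log2 fold changes of -2.01 and -1.01). *Gja5* encodes a connexin of atrial muscle that arterial endothelium also uses. It had 666, 742 and 3196 counts in miRNA-26b-/- and 2602, 2700 and 3166 in miRNA-26b+/+ mice. *Pecam1* had 4723, 5856 and 20206 against 14949, 17325 and 17934 counts. Both were highest in M2628 and lowest in M2626 and M2627. In CPM, M2631 was above M2630 for *Gja5* and below it for *Pecam1*. Not all of the 8 endothelial genes were highest in M2628, and the part of endothelium in the change of *Gja5* was not tested.

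The uneven order of the members was also seen in part of this wider list. M2627 and M2630 were the highest 2 libraries for 26 of the 68 genes (38.2%), beside 7.25% of all 16017 genes tested. These 2 libraries were picked from the levels of the members, and the lists were chosen with earlier results known. The shares are therefore a description and support no test. In the list of energy metabolism this held for 7 of 8 genes, among them myoglobin (*Mb*), with 162, 1281 and 0 counts in miRNA-26b-/- and 111, 1239 and 110 in miRNA-26b+/+ mice, and the cytochrome oxidase subunit *Cox7a1*, with 41, 549 and 41 against 233, 464 and 111 counts. As 4 of 4 adipocyte and 3 of 4 brown fat genes had the same 2 libraries highest, this share is not particular to heart muscle. Whether the energy genes come from heart muscle, skeletal muscle or fat was not tested. It held for 10 of 24 further sarcomere genes but not for the most abundant of them, *Hspb7*, *Myom1*, *Ldb3* and *Xirp1*. *Myom1*, an M-band protein, had 7400 to 11647 counts in every library. The same was seen for 4 of 15 genes of calcium handling and conduction, where *Atp2a2*, the calcium pump, *Jph2*, *Gja1* and *Kcnh2* had at least 3282 counts in every library, and for 1 of 10 transcription factors. It held for 3 of 8 further atrial genes, but not for the most abundant, *Gja5*, *Nr2f2*, *Stard10* and *Nr2f1*. Among further ventricular genes it held for 1 of 3, *Myl3*, and not for *Lbh* and *Hey2*. *Nkx2-5*, a defining cardiac transcription factor, had 0 counts in all 6 libraries, as had *Bmp10*, *Irx4* and *Nppb*, whereas *Mef2a*, *Mef2c*, *Gata6* and *Tbx18* had 1556 to 6883 counts in each. Of the 77 genes, 5 were at 0 in M2627 and 8 in M2630, against 15 to 31 in the other libraries. *Myl3*, the ventricular essential light chain that slow skeletal fibres also use, had 38 counts in M2627, 111 in M2630 and 0 elsewhere, while *Myl2* was at 0 in both. *Hand1*, a transcription factor of the heart, had 50 and 4 counts in the same libraries.

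**Figure D3:**
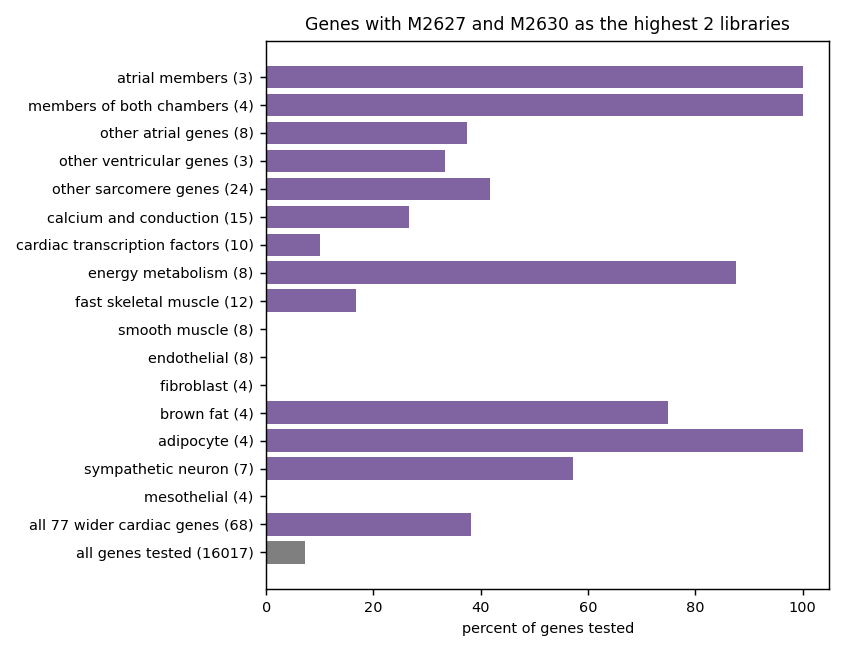
Percent of the tested genes of each list (number tested in brackets) for which M2627 and M2630 were the highest 2 of the 6 libraries. The 3 atrial and 4 shared members that passed the filter are at 100%, and the members were chosen with their levels known. The wider cardiac genes together are at 38.2%, and all genes tested are at 7.25%. The 2 libraries were picked from the levels of the members and all lists were chosen with earlier results known, so the percents are a description.

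Genes with the most similar shape over the 6 libraries were found by the root mean square difference of log2(CPM + 0.5), each gene centred on its own mean. For the mean of the atrial members these were *Trdn* (0.507), *Angpt1* (0.512), *Tmem182* (0.514), *Tdrp* (0.524) and *Csrp3* (0.554), in log2 units. *Trdn* encodes triadin of the calcium release complex, and *Csrp3* the muscle LIM protein. *Trdn* had 1, 113 and 0 counts in miRNA-26b-/- and 20, 119 and 0 in miRNA-26b+/+ mice. For the members of both chambers the nearest were *Csrp3* (0.316), *Mybphl* (0.397), *Dcst1* (0.483), *Trdn* (0.516) and *Tcf15* (0.543), *Mybphl* being a myosin-binding protein of atrial muscle with 0, 509 and 0 counts against 40, 245 and 0. *Trdn* and *Csrp3* were on both of these lists. The ventricular profile averages the few reads of *Myh7* with *Myl2*, at 0 in every library, so its range is small. Its nearest genes, *Anapc10*, *Usp16*, *Slc35a1*, *Zfp963* and *Klf8*, were at most 0.135 away. They also vary little, *Usp16* from 681 to 1229 counts, so the small distance does not show that they follow *Myh7*, with 0 to 38 counts. With a pseudocount of 2, 4 of the 15 places were filled by the same genes.

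Markers of other tissues that adjoin the aorta were also uneven, and some moved with the members. M2627 and M2630 were the highest 2 libraries for 4 of 4 adipocyte genes, 3 of 4 brown fat genes and 4 of 7 genes of sympathetic neurons, and for 0 of 8 smooth muscle, 0 of 8 endothelial, 0 of 4 fibroblast and 0 of 4 mesothelial genes. Over all genes tested the share was 7.25%. The adipocyte list, led by *Cfd* and *Cidec*, summed to 815, 1738 and 652 CPM in miRNA-26b-/- mice and 755, 1118 and 394 CPM in miRNA-26b+/+ mice. The brown fat list, led by *Ucp1* and *Dio2*, summed to 201, 425 and 217 against 261, 368 and 141 CPM. These sums did not fall below 141 CPM in any library, whereas those of the atrial members ran from 0 to 101 CPM. Sympathetic neuron genes, led by *Slc6a2* and *Stmn2*, summed to 376 CPM in M2627, to 64.3 CPM in M2630 and to 18.4 to 30.6 CPM in the others. Neither *Slc6a2* nor *Stmn2* had M2627 and M2630 as its highest 2 libraries. The fast skeletal muscle list, led by *Ckm* and *Acta1*, summed to 50.1, 138 and 8.67 CPM in miRNA-26b-/- mice and 7.98, 21.3 and 4.87 CPM in miRNA-26b+/+ mice. M2627 was highest on it, but M2626, low in the cardiac members, was next. Of its 12 tested genes, 6 exceeded 1 CPM in miRNA-26b-/- libraries only, so that they passed the filter through the group in which they were higher, and no count of calls is given for the list. Mesothelial genes, led by *Upk3b* and *Msln*, summed to 8.89 to 24.1 CPM. Fibroblast genes, led by *Dcn* and *Pi16*, were at 1643 to 2931 CPM. Over the 10 lists of other cell types, 18 of 56 tested genes had an unadjusted p-value under 0.05 in edgeR, beside 6.47% of all 16017 genes. Of the 18, 16 were higher in miRNA-26b-/- mice, beside 544 genes higher and 492 lower over all genes. The 16 include these 6 genes that passed the filter through that group, so nothing is read from the count or its direction. An adjusted p-value under 0.05 was given to 0 of the 56 in edgeR or limma voom. In DESeq2, 4 of the 56 passed the adjustment, beside 57 of all 16017 genes. They were the skeletal muscle genes *Mylpf*, *Tnnt3* and *Pvalb*, all among these 6, and *Myocd*, lower in miRNA-26b-/- mice. In edgeR without M2628 it was 9 genes, beside 82 of all 15654. Without M2627 and M2630 the count at the unadjusted threshold was 5 of 48, beside 4% of all genes in that fit. The part of any of these tissues in the levels of the cardiac members was not tested.

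**Figure D4:**
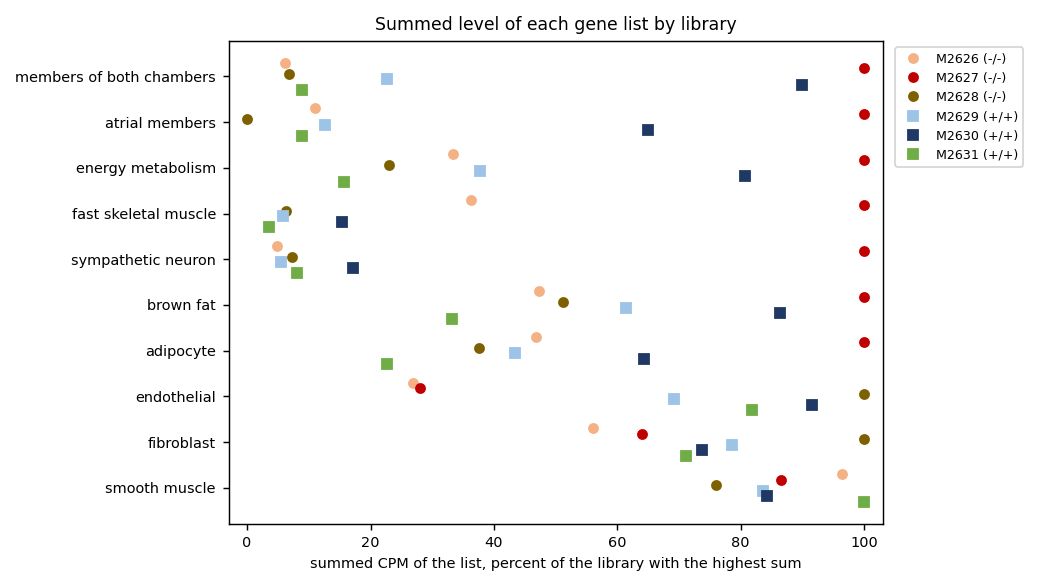
Summed CPM of 10 gene lists in each library (points; circles miRNA-26b-/-, squares miRNA-26b+/+), as a percent of the library with the highest sum. M2627 and M2630 lie to the right for both lists of members and for energy metabolism, M2626 comes second for fast skeletal muscle, and the 6 libraries lie close together for smooth muscle.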

How the data were processed

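The authors aligned the reads of TruSeq libraries with STAR to GRCm38 and counted them per gene name with featureCounts 1.6.4 (per the file header), without strand and with a read counted for each gene it overlapped. The deposited count table was used; the deposited table of normalized values and fold changes was not used here. Where a gene's counts came to 2 or more in all and it exceeded 1 CPM in 2 or more libraries, it was tested by the quasi-likelihood method (edgeR 4.0.16, R 4.3.3) after TMM, with a prior count of 0.125 and Benjamini-Hochberg adjustment over all genes tested, and the procedure was tested on simulated data. The members and all lists were chosen with earlier results of these data known. Named genes were the members, genes overlapping them, of each wider cardiac list the 4 most abundant and up to 4 with the smallest unadjusted p-value under 0.05, of each marker list the 2 most abundant, the 5 nearest in shape to each profile, *Mir26b* and *Ctdsp1*; *Myl3*, *Hand1*, *Nkx2-5*, *Bmp10*, *Irx4*, *Nppb*, *Nexn*, *Mylpf*, *Tnnt3*, *Pvalb* and *Myocd* fall partly outside this rule and were added from the lists after their values were seen. The values of 1 marker list are not reported here. P-values measure the spread between 3 mice per genotype, moderated over all genes in the fit, and standard errors were worked back from the F statistic of the same test. Totals of 25706728 to 33345037 counts put the floor of 3 counts at 0.090 to 0.117 CPM, for counting error only. Alternatives were the scaling, the filter, the prior count, DESeq2 1.42.0, limma 3.58.1 voom and leaving out each library. The earlier edgeR method, leaving out M2627 with M2630, the transcript length and every alternative for the lists of other cell types were chosen after seeing the data.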

Additional observations from a re-analysis of the deposited data

How the results depend on the processing

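No paired analysis was made, because nothing in the sources used here pairs miRNA-26b-/- with miRNA-26b+/+ mice. Scaling, filter and prior count changed none of the 3 counts of genes by more than 1.5 times. Of the wider cardiac list, 4 genes had an unadjusted p-value under 0.05, 2 to 7 with 1 library left out and 2 with the earlier edgeR method. Of the other cell types 18 did, 8 to 35 with 1 library left out, 11 with DESeq2, 10 with limma voom, 10 with the earlier edgeR method and 5 without M2627 and M2630. Over all 16017 genes the count was 1036, 840 with DESeq2, 847 with limma voom and 802 with the earlier edgeR method. It was 686 to 1692 with 1 library left out and 607 without M2627 and M2630. For the members the count was 0, and 0 to 5 with 1 library left out, the 5 coming without M2627, and 1 without M2627 and M2630. The sign of the log2 fold change turned for *Myh6* with DESeq2 (-0.061) and the earlier edgeR method (-0.065), with limma voom for *Myl7* (-2.14), *Myl4* (-2.26), *Sln* (-0.20) and *Myh6* (-2.10), and without M2627 and M2630 for *Myl4* (-0.71), *Myh6* (-2.26) and *Tnni3* (-1.12); the cause was not tested. With 1 library left out, it ran from -4.37 to 2.19 for *Myl7*, -1.77 to 1.56 for *Myl4*, 0.36 to 1.54 for *Sln*, -4.40 to 2.18 for *Myh6*, -1.80 to 1.14 for *Actc1*, -1.96 to 0.28 for *Tnnt2* and -2.87 to 2.08 for *Tnni3*. *Tnnt2* was also above 0 without M2626 (0.20) or M2628 (0.15), and *Actc1* likewise (0.38 and 0.37). *Myl7* (-0.11), *Myh6* (-0.56) and *Tnni3* (-0.30) turned without M2631, and *Myh6* (-0.34) without M2629. *Nppa* and *Myh7* were tested only with other filters, with 0 unadjusted p-values under 0.05. Members were present in 38 of the gene and library pairs above 3 counts, in 40 at 1 count or more and in 33 above 1 CPM. Depth limits *Nppa*, *Myl2* and *Myh7*, whose absence below the floor cannot be shown.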
